A study of Mus musculus with 21 samples.

Results

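The genes described here are those whose RNA level differed in one direction between vitamin B6 and vehicle on all 3 days of a differentiation course of mouse embryonic stem cells. A gene was taken when every vitamin B6 library lay on the same side of every vehicle library on day 3, on day 5 and on day 7. Of 18318 genes with enough counts to be tested, 53 met this rule, 36 of them higher in vitamin B6 (0.197% of the genes tested) and 17 of them lower (0.0928%). The cells were E14 embryonic stem cells, a line from the inner cell mass of the mouse blastocyst. The vitamin B6 arm (VB6) received 20 µM VB6, named as pyridoxine, for 3, 5 or 7 days, the vehicle arm received the carrier for the same times, and each of these 6 groups held 3 libraries, 18 in all. The series also holds 3 libraries of cells kept in standard culture with neither, which served only as a reference level. The labels leave out how differentiation was induced. The title of the series names endoderm, glycolysis and histone lactylation as what vitamin B6 may act on.

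Vitamin B6 enters cells as pyridoxine, pyridoxal or pyridoxamine and is converted to pyridoxal phosphate, the cofactor of most aminotransferases and of many other enzymes of amino acid metabolism. Embryonic stem cells that differentiate in aggregates commonly form extraembryonic endoderm on their surface. Its visceral form is an absorptive epithelium that takes up and secretes proteins as the liver later does, making alpha-fetoprotein, transferrin, apolipoproteins and fibrinogen, while its parietal form lays down basement membrane and releases plasminogen activator.

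Levels are given as CPM, counts divided by the library total and scaled with TMM factors, and differences as log2 values of VB6 minus vehicle with the standard error (SE) of the fit. Totals were 15882380 to 21629730 expected counts per library. Where a library had 0 counts, up to 3 counts (0.142 to 0.183 CPM) cannot be told from 0 by counting error alone. The labels do not state that replicate libraries are separate cultures. Variation among replicates may thus be technical. In a fit with a mean for each group, the p-values rest on that variation alone. In the fit with day as a block, disagreement of the VB6 difference between days adds to the error as well. In bulk RNA, fewer cells of a type and less RNA per cell cannot be told apart.

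Libraries of 2 groups stood apart, and they belonged to opposite arms. Fragment length implied by the deposited values was 220 to 237 nt in vehicle day 5 and 260 to 275 nt in VB6 day 7, against 303 to 315 nt in the other groups. Ribosomal protein genes took 3.42 to 3.73% of counts in vehicle day 5 and 3.3 to 3.53% in VB6 day 7, against 5.43 to 7.09% in the other 4 groups of the course. Mitochondrially encoded genes took 3.95 to 4.33% in vehicle day 5 and 2.92 to 3.39% in VB6 day 7, against 1.88 to 2.86%. At day 3 the arms overlapped in fragment length, at 307 to 315 nt in vehicle and 306 to 312 nt in VB6. They did not overlap in the share of ribosomal protein genes, at 6.08 to 6.64% in vehicle and 6.81 to 7.09% in VB6. Nor did they in the mitochondrial share (2.27 to 2.49% and 2.58 to 2.86%) or in mean GC content (48.4 to 48.6% and 48.3%). The pluripotency factor Pou5f1 averaged 1178 CPM in standard culture. In vehicle it averaged 884 ± 42.2 CPM (SD, n = 3) on day 3, 207 ± 17.5 CPM on day 5 and 75 ± 9.18 CPM on day 7. That is a fall in the order of the labelled days, which Sox2, Klf2 and Nanog did not share. Their vehicle means on days 3, 5 and 7 were 218, 61.4 and 102 CPM for Sox2 and 47.1, 8.5 and 13.8 CPM for Klf2. For Nanog they were 131, 150 and 49.2 CPM.

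A difference shared by all 3 days was the exception. The edgeR quasi-likelihood F test of the interaction found a VB6 difference that differed between days (Benjamini-Hochberg adjusted p under 0.05) in 11540 genes, 63% of those tested. The arms did not overlap at day 3 in 5460 genes (29.8%), at day 5 in 11908 genes (65%) and at day 7 in 8497 genes (46.4%), counting both directions. The sign of the fitted difference was positive on all 3 days in 1131 genes (6.17%) and negative in 938 genes (5.12%). With day as a block, the edgeR quasi-likelihood test over the 18 libraries called 14 genes higher in VB6 (0.0764%) and 9 genes lower (0.0491%) at an adjusted p under 0.05, where 1821 genes had an unadjusted p under 0.05. Of these 23 genes, 10 of the higher and 4 of the lower ones are among the 53. The rule and the fit read the same libraries, so that share says nothing about the 53 genes. Their adjusted p-values lay between 0.0378 and 0.0462, close to the threshold, and leaving out any single one of the 18 libraries left 1 to 14 calls in all. Under DESeq2 the same design called 126 genes higher and 98 lower. When the 3 daily differences were averaged in a fit with a mean for each group, whose error leaves out the disagreement between days, 1482 genes were called higher (8.09%) and 1185 lower (6.47%), 51 of the 53 among them. That share too comes from the libraries that chose the genes.

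The differences of the 53 genes were small. Their median log2 difference over the days was 0.28 for the 36 higher genes and -0.27 for the 17 lower ones, against 0.01 over all genes tested. By day, the medians were 0.26, 0.25 and 0.27 for the higher genes and -0.2, -0.32 and -0.23 for the lower ones on days 3, 5 and 7. The difference was under 0.5 in size in 40 of the 53 genes and under 0.2 in 15, and the smallest, that of Rbbp4, was 1.05-fold. The plot of the daily differences shows a short head of larger values and a long tail near 0.

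**Figure D1:**
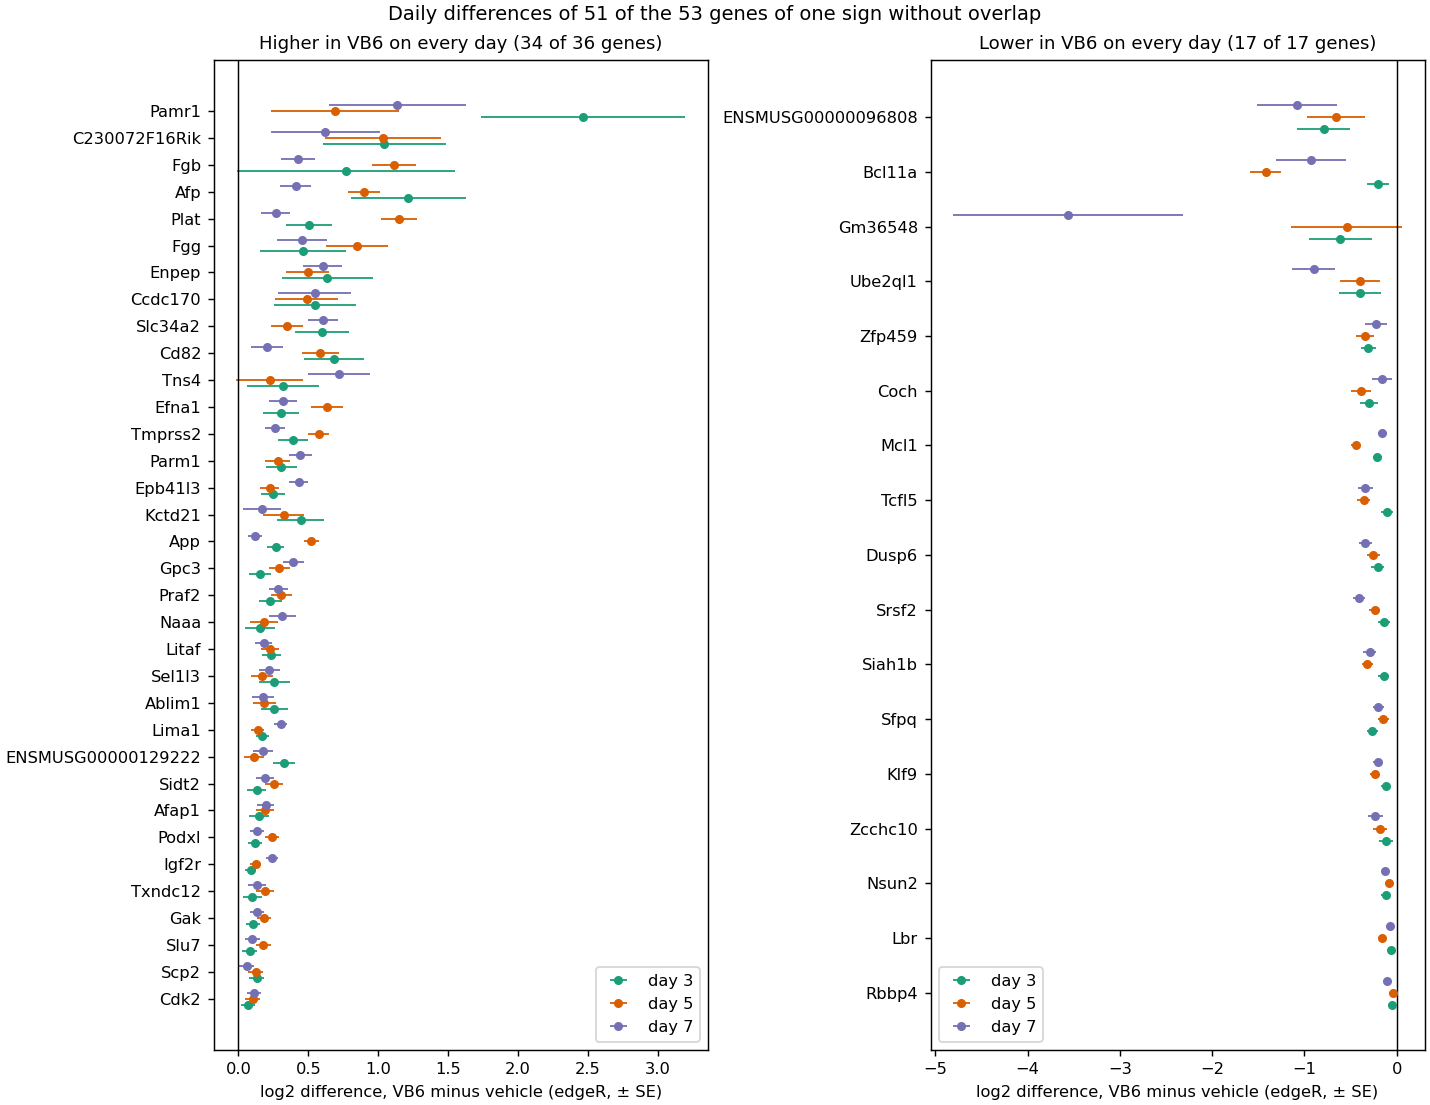
Log2 difference of VB6 minus vehicle (x axis, points with SE) of 51 of the 53 genes on day 3 (green), day 5 (orange) and day 7 (purple), with 34 higher genes on the left and the 17 lower genes on the right, sorted by the difference over the days. Most genes sit near or below 0.5, while Fgb, Afp and Plat reach about 1 on day 3 or day 5 and have their smallest difference on day 7.

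Among the higher genes that passed the fit and reached 1 CPM on every day in the higher arm, Enpep and Afp had the largest value of their smallest daily difference. Their promoters are shown because these genes head the shared list and because alpha-fetoprotein is the standard marker of visceral endoderm. The windows run from 250 bases before to 50 bases after the RefSeq start site on GRCm38.p6, the Enpep window at chr3:129332700-129332999 on the minus strand and the Afp window at chr5:90490464-90490763 on the plus strand. Capitals mark matches, on either strand, to the CCAAT box CCAAT or the TATA box TATAAA or the HNF1 site GTTAAT, the last searched for after the genes were known.
Enpep: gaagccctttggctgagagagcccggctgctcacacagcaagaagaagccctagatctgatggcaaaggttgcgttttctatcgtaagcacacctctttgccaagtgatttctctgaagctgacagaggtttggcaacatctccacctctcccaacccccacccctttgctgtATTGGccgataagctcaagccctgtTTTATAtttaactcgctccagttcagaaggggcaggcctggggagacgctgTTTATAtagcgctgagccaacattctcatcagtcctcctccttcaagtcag
Afp: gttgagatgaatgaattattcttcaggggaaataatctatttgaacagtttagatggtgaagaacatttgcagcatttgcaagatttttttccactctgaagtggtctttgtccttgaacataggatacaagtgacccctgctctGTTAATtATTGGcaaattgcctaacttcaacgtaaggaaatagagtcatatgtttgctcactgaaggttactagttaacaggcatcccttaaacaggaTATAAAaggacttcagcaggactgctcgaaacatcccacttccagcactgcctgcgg
Counted from the 5′ end of its window, Afp holds GTTAAT at position 146 and a TATA box at position 244. Afp also holds a CCAAT box on the other strand at position 153. Enpep holds a CCAAT box at position 174 and a TATA box at positions 199 and 250, each on the other strand. A CCAAT box is present in 41.1% of the 27025 genes with a promoter in the table, a TATA box in 15.7% and GTTAAT in 8.2%. Of the 27 higher genes with a promoter, 14 hold a CCAAT box, 3 a TATA box and 3 GTTAAT. The GC box GGGCGG is in 17 of these 27 and in 10 of the 15 lower genes with a promoter, against 38.2% of the 27025 genes. The E-box CACGTG is in 2 genes of each set, against 8.1%, and the cAMP response element TGACGTCA is in none, against 2% of the 27025 genes. The GATA site AGATAA, also searched for afterwards, is in 1 gene of each set, against 12.7%. These are matches of letters within a window, and the data hold no measure of binding.

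Among the higher genes are 4 secreted proteins of visceral and parietal endoderm, Afp, Fgb, Fgg and Plat. The grouping of the 53 genes by role, here and below, was made after their values were known. Afp (mm10 chr5:90490737-90508907, plus strand) encodes alpha-fetoprotein, the main serum carrier protein of the embryo. On day 3 Afp stood at 0.421, 1.15 and 1.19 CPM in vehicle and at 1.87, 2.16 and 2.55 CPM in VB6. On day 5 it stood at 126, 129.6 and 165 CPM in vehicle and at 224, 263 and 296 CPM in VB6. On day 7 it stood at 1057, 1059 and 1070.0 CPM in vehicle and at 1232, 1289 and 1709 CPM in VB6. The groups were apart on each day while the level of both arms climbed by about 3 orders of magnitude, and in standard culture none of the 3 libraries held a count. Over the days Afp rose by 0.75 (SE 0.13, adjusted p = 0.046), with daily differences of 1.22 (SE 0.41), 0.9 (SE 0.12) and 0.41 (SE 0.11) that themselves differed (adjusted p of the interaction = 0.0208).

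Fgb (chr3:83040141-83049863), the fibrinogen beta chain, followed the same order of groups. It stood at 6.46, 7.29 and 8.13 CPM in vehicle day 5 and at 14, 14.9 and 18.5 CPM in VB6 day 5. Its day 7 levels were 44.6, 45.4 and 45.8 CPM in vehicle and 51.4, 53 and 78.4 CPM in VB6, so 1 VB6 library was well above the other 2. Its day 3 levels, 0.119 to 0.18 CPM in vehicle and 0.182 to 0.393 CPM in VB6, lay at or near the level of 3 counts, and the arms there all but touched. Over the days Fgb rose by 0.75 (SE 0.13, adjusted p = 0.046). Fgg, the fibrinogen gamma chain beside Fgb on chromosome 3, had daily differences of 0.46 (SE 0.31), 0.85 (SE 0.22) and 0.45 (SE 0.18) and did not pass (0.59, SE 0.14, adjusted p = 0.11). In standard culture Fgg averaged 1.01 CPM, between its day 3 means of 0.811 CPM in vehicle and 1.12 CPM in VB6. Fga, the alpha chain, did not meet the rule, and its daily differences were 0.14, 0.84 and 0.52.

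Plat (chr8:22757727-22782844), tissue plasminogen activator, is a product of parietal endoderm. It stood at 1.66, 2.53 and 2.83 CPM in vehicle day 3 and at 3.01, 3.44 and 3.59 CPM in VB6 day 3. In standard culture Plat averaged 3.1 CPM, between the day 3 means of 2.34 CPM in vehicle and 3.35 CPM in VB6. On day 5 the vehicle libraries held 4.17, 4.19 and 4.29 CPM and the VB6 libraries 8.54, 9.2 and 10.2 CPM. On day 7 the vehicle libraries held 18.9, 19.9 and 22.4 CPM and the VB6 libraries 23.9, 24.8 and 24.8 CPM. The day 5 difference was the largest, at 1.15 (SE 0.13), against 0.5 (SE 0.16) on day 3 and 0.27 (SE 0.1) on day 7, and over the days Plat just missed the threshold (0.63, SE 0.12, adjusted p = 0.0519). After a correction for GC content and length, described below, its daily differences were 0.46, 1.37 and 0.13. The arms then overlapped on some day, which they did not in deposited TPM or FPKM.

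**Figure D2:**
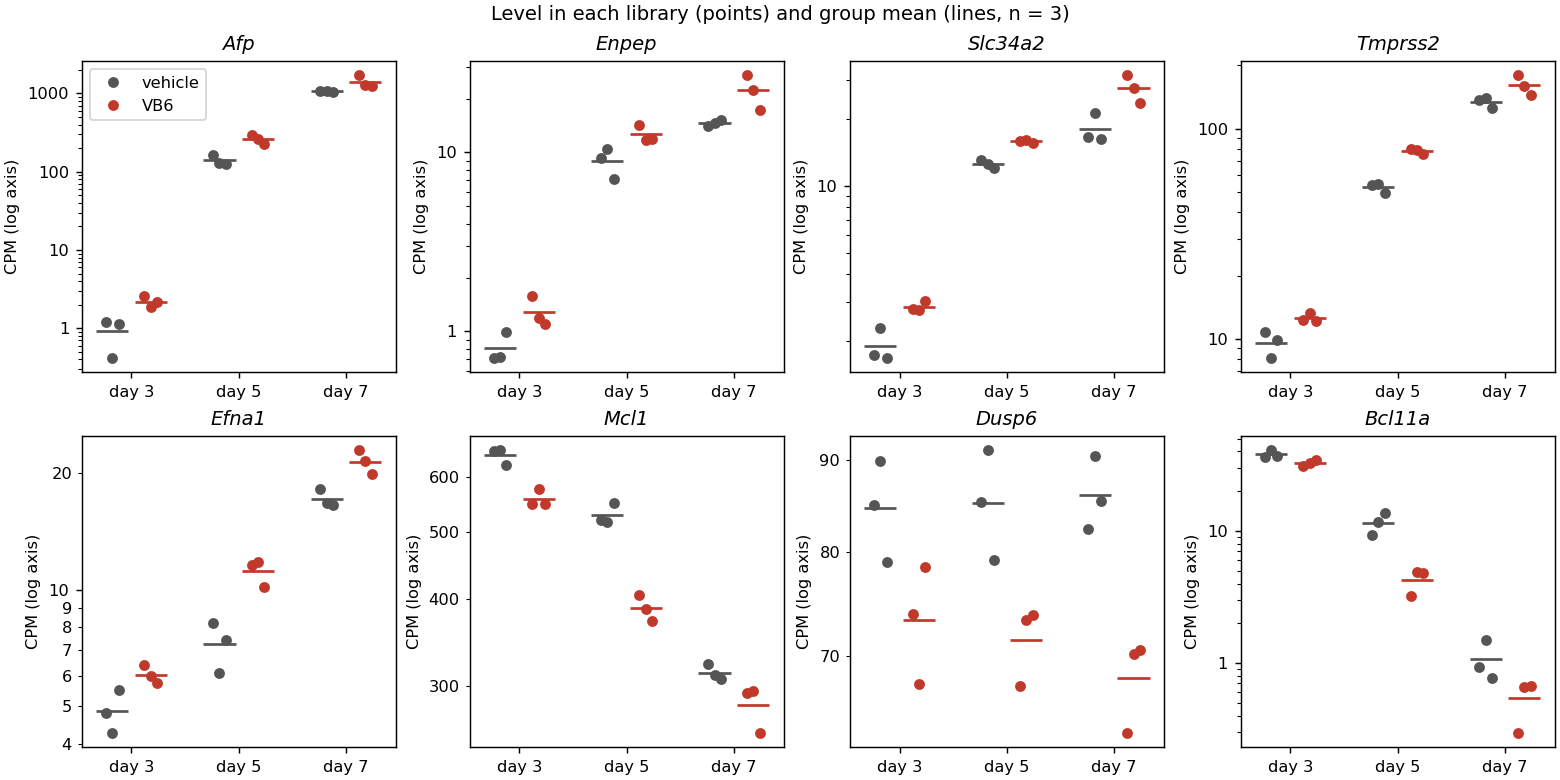
CPM (log axis) of 5 higher and 3 lower genes in each vehicle library (grey) and VB6 library (red) by day, with the group mean as a line (n = 3). The 2 colours do not overlap on any day, and for most of these genes the change from day to day is far larger than the change between arms, Dusp6 being level across days in vehicle.

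Genes of the epithelial surface form a further group of higher genes. Enpep (chr3:129269175-129332720, minus strand) encodes glutamyl aminopeptidase, a membrane enzyme of brush borders that cleaves angiotensin. It stood at 0.712, 0.722 and 0.995 CPM in vehicle day 3 and at 1.11, 1.18 and 1.58 CPM in VB6 day 3. By day 7 it had reached 14, 14.6 and 15.2 CPM in vehicle and 17.3, 22.4 and 27 CPM in VB6. On day 5 the highest vehicle library, at 10.4 CPM, was below the lowest VB6 library, at 11.8 CPM. Over the days Enpep rose by 0.57 (SE 0.11, adjusted p = 0.0462), at much the same size on each day (0.64, 0.49 and 0.6).

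Slc34a2 (chr5:53038081-53071664), a sodium-dependent phosphate transporter of apical membranes, rose by 0.51 (SE 0.08, adjusted p = 0.046). It stood at 1.68, 1.72 and 2.29 CPM in vehicle day 3 and at 2.75, 2.8 and 3.01 CPM in VB6 day 3. Its day 5 levels were 12, 12.6 and 13.1 CPM in vehicle and 15.7, 16 and 16.2 CPM in VB6. Day 7 levels were 16.4, 16.7 and 21.5 CPM in vehicle and 23.6, 27.6 and 31.7 CPM in VB6. The VB6 libraries were close together on days 3 and 5 and spread on day 7.

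Tmprss2 (chr16:97564682-97611195), a membrane serine protease of epithelia, had the smallest adjusted p of the 53 genes (0.41, SE 0.07, adjusted p = 0.0378). It stood at 8.12, 9.89 and 10.7 CPM in vehicle day 3 and at 12.1, 12.3 and 13.3 CPM in VB6 day 3. Day 5 levels were 49.6, 54.1 and 54.5 CPM in vehicle and 75.7, 79.5 and 80.3 CPM in VB6. The levels on day 7 were 126, 137 and 139.8 CPM in vehicle and 144, 159 and 179.7 CPM in VB6. The separation was widest on day 5, and the daily differences of 0.39, 0.57 and 0.26 differed from each other (adjusted p of the interaction = 0.0435). After a correction for GC content and length, described further on, the day 7 difference was 0.17. The arms then overlapped on some day, as they did in deposited TPM and FPKM.

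Of the other surface genes, Efna1, Parm1 and Epb41l3 also passed. Efna1, the membrane-bound ephrin A1 ligand, rose by 0.42 (SE 0.08, adjusted p = 0.0462), with day 5 means of 7.23 ± 1.06 CPM (SD, n = 3) under vehicle and 11.2 ± 0.874 CPM under VB6. After the correction for GC content and length its day 5 difference was 0.11 instead of 0.63, with overlap on some day. Parm1, a membrane mucin-like protein, rose by 0.34 (SE 0.06, adjusted p = 0.046), and its largest daily difference was on day 7, at 22.3 ± 1.72 CPM in vehicle and 30.3 ± 1.68 CPM in VB6. Epb41l3, a band 4.1 protein that links membrane proteins to the actin cytoskeleton, rose by 0.3 (SE 0.05, adjusted p = 0.046) and likewise differed most on day 7, at 120.3 ± 4.46 and 162 ± 18.8 CPM. Podxl, the apical sialomucin podocalyxin, differed by only 0.16 (SE 0.04, adjusted p = 0.156), but its day 5 groups were far apart for their spread, at 675 to 698 CPM in vehicle and 801 to 820.3 CPM in VB6. After the correction its day 5 difference was 0.05 instead of 0.24, with overlap. Gpc3, a heparan sulfate proteoglycan that binds growth factors, stood at 799 to 902 CPM in vehicle day 7 and 968 to 1226 CPM in VB6 day 7 (0.28 over the days, SE 0.06, adjusted p = 0.0732). Cd82, a tetraspanin, had daily differences of 0.68, 0.58 and 0.2 (adjusted p = 0.0976 over the days), and 0.67, 0.02 and 0.51 after the correction.

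App, the amyloid precursor protein, rose by 0.3 (SE 0.06, adjusted p = 0.0462), with the clearest separation on day 5. It stood there at 76.6, 80.9 and 82.9 CPM in vehicle and at 112, 113 and 121 CPM in VB6. On day 7 it stood at 184, 195 and 199 CPM in vehicle and at 199, 209 and 217 CPM in VB6, so the highest vehicle library and the lowest VB6 library all but touched. Its daily differences of 0.27, 0.52 and 0.12 differed from each other (adjusted p of the interaction = 0.000199). Praf2, a membrane protein of the secretory pathway, rose by 0.27 (SE 0.05, adjusted p = 0.0462), from 16.9 ± 1.17 to 19.8 ± 1.54 CPM on day 3, from 25.2 ± 1.97 to 31.1 ± 1.43 CPM on day 5 and from 49.1 ± 2.11 to 59.8 ± 2.71 CPM on day 7.

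None of the remaining higher genes passed. Those of the lysosome and its supply are Igf2r, the receptor that carries mannose 6-phosphate tagged enzymes to lysosomes, Naaa, an acid amidase, Sidt2, a lysosomal membrane protein, and Litaf, a late endosomal protein. Igf2r stood at 199 to 209 CPM in vehicle and 213 to 219 CPM in VB6 on day 3, and at 286 to 295 and 336 to 355 CPM on day 7. Naaa differed by 0.22 over the days and Sidt2 by 0.19. Litaf kept much the same size on each day as counted, at 0.23, 0.23 and 0.18. After the correction its daily differences were 0.19, 0.38 and 0.09 and differed from each other (adjusted p of the interaction = 0.00961).

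Genes of the actin cytoskeleton and adhesion include Lima1, an actin-bundling protein, Afap1, Ablim1 and Tns4, a tensin of focal adhesions. Lima1 stood at 137 to 147 CPM in vehicle and 159 to 162 CPM in VB6 on day 3, with little change in level from day to day. Its difference over the days was 0.2 (SE 0.04, adjusted p = 0.0683). After the correction its day 5 difference was 0.014 instead of 0.136, with overlap on some day. Afap1 differed by 0.18, Ablim1 by 0.2 and Tns4 by 0.43 over the days, the last with vehicle day 7 libraries spread from 2.76 to 7.99 CPM. The rest are genes of varied roles. Cdk2, a cell cycle kinase, Scp2, a sterol carrier, Slu7, a splicing factor, Gak, a clathrin uncoating kinase, and Txndc12, a thioredoxin-like protein of the endoplasmic reticulum, differed by 0.09 to 0.14. Sel1l3, Kctd21 and Ccdc170 differed by 0.21, 0.3 and 0.53. Pamr1 had the largest fitted difference, 1.2 (SE 0.33, adjusted p = 0.178), but its vehicle day 3 libraries held 0, 0.105 and 0.119 CPM, under the level of 3 counts, so that fold depends on the prior count of the fit. The noncoding RNAs C230072F16Rik and ENSMUSG00000129222 differed by 0.88 and 0.2.

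The lower genes that passed act in signalling and cell survival or are regulators of transcription and protein turnover. Dusp6 (chr10:99263231-99267489) encodes the phosphatase that inactivates ERK and is itself a transcriptional target of FGF and ERK signalling. It stood at 78.9, 84.9 and 89.9 CPM in vehicle day 3 and at 67.5, 73.9 and 78.4 CPM in VB6 day 3. The levels on day 5 were 79.1, 85.2 and 91.1 CPM in vehicle and 67.3, 73.3 and 73.8 CPM in VB6. Its day 7 levels were 82.3, 85.4 and 90.5 CPM in vehicle and 63.4, 70.1 and 70.5 CPM in VB6. The vehicle level was the same on every day within the spread of its libraries, and on day 3 the arms all but touched. Over the days Dusp6 fell by 0.27 on the log2 scale (SE 0.05, adjusted p = 0.0462), with daily differences of -0.21, -0.25 and -0.34.

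Mcl1 (chr3:95658788-95663176), an antiapoptotic member of the BCL2 family, fell by 0.27 (SE 0.05, adjusted p = 0.0462). It stood at 624, 653 and 655 CPM in vehicle day 3 and at 548, 548 and 576 CPM in VB6 day 3. On day 5 it stood at 516, 521 and 549 CPM in vehicle and at 372, 387 and 405 CPM in VB6. Day 7 levels were 308, 311 and 323 CPM in vehicle and 257, 293 and 295 CPM in VB6. Day 5 differed most, and the 3 daily differences of -0.21, -0.45 and -0.15 were not equal (adjusted p of the interaction = 0.00315).

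Siah1b (chrX:164070705-164076493), a ubiquitin ligase, fell by 0.25 (SE 0.05, adjusted p = 0.0462), and its groups were tight. It stood at 34, 35.5 and 35.9 CPM in vehicle day 3 and at 31.1, 31.3 and 33.3 CPM in VB6 day 3. Its day 5 levels were 27.3, 27.6 and 28 CPM in vehicle and 21.5, 22.3 and 22.6 CPM in VB6. The levels on day 7 were 19.2, 19.3 and 20.9 CPM in vehicle and 15.9, 16.2 and 16.3 CPM in VB6. Both arms lost Siah1b from day to day, VB6 remaining below vehicle throughout. Zfp459, a zinc finger protein, fell by 0.3 (SE 0.06, adjusted p = 0.0462), with day 3 means of 21.3 ± 0.953 CPM under vehicle and 17.2 ± 0.304 CPM under VB6 and day 5 means of 7.15 ± 0.377 and 5.61 ± 0.121 CPM.

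Bcl11a (chr11:24078056-24174123), a zinc finger transcriptional repressor, had the largest difference of the lower genes with a mean above 1 CPM in vehicle on every day, although it did not pass over the days (-0.79, SE 0.18, adjusted p = 0.0997). It stood at 36.2, 37 and 40.8 CPM in vehicle day 3 and at 31.3, 32.8 and 34.7 CPM in VB6 day 3. Day 5 levels were 9.27, 11.6 and 13.8 CPM in vehicle and 3.19, 4.82 and 4.86 CPM in VB6. On day 7 it stood at 0.777, 0.925 and 1.49 CPM in vehicle and at 0.296, 0.661 and 0.675 CPM in VB6. The gene was being lost in both arms, and the daily differences of -0.2, -1.42 and -0.93 were unequal (adjusted p of the interaction = 8.78e-05). Other transcription factors among the lower genes are Tcfl5, a basic helix-loop-helix protein, at -0.27 (SE 0.06, adjusted p = 0.0807), and Klf9, a Krüppel-like factor, at -0.19 (SE 0.04, adjusted p = 0.0807). Klf9 stood at 141 to 152 CPM in vehicle day 5 and 119.6 to 128 CPM in VB6 day 5.

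RNA-binding and RNA-modifying proteins among the lower genes are Srsf2, a splicing factor of the SR family, Sfpq, a splicing factor of paraspeckles, and Nsun2, an RNA cytosine methyltransferase. Srsf2 stood at 531 to 587 CPM in vehicle and 482 to 518 CPM in VB6 on day 3, at 479 to 520.0 and 395 to 448 CPM on day 5, and at 321 to 354 and 229 to 269.7 CPM on day 7. Its daily differences were -0.14 (SE 0.06), -0.24 (SE 0.06) and -0.41 (SE 0.06) as counted and -0.2, -0.44 and -0.28 after the correction, where their interaction no longer passed (adjusted p = 0.0671, against 0.034). Sfpq differed most on day 3, at 503 to 553 CPM in vehicle and 413 to 458 CPM in VB6. Nsun2 differed by -0.11 over the days and Zcchc10, a zinc knuckle protein, by -0.18. Rbbp4, a histone-binding subunit of chromatin complexes, and Lbr, the lamin B receptor of the nuclear envelope, differed by -0.07 and -0.1. Coch, a secreted extracellular protein, differed by -0.28 and Ube2ql1, a ubiquitin-conjugating enzyme-like protein, by -0.56. Gm36548, a noncoding RNA, was at 0 in all 3 VB6 day 7 libraries and at no more than 0.115 CPM in vehicle day 7, under the level of 3 counts on both sides, so no fold is given. ENSMUSG00000096808, without a symbol, lay at 1.99 to 3.27 CPM in vehicle day 3 and 1.4 to 1.87 CPM in VB6 day 3.

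The rule has a sharp edge, and some genes fall on either side of it by less than the spread of any library. Just inside are Tcfl5, App and Rbbp4, whose closest pair of opposite libraries on some day differed by 0, 0.001 and 0.002 on the log2(CPM + 0.1) scale. Just outside are Bend3, with a fitted difference of -0.24 over the days, Emc1, with -0.11, and the noncoding RNA Gm27232, whose arms touch by 0.001 or less. Leaving out 1 library at a time gave 37 to 53 higher and 18 to 29 lower genes without overlap, a looser rule on that day, and 48 to 53 of the 53 remained.

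The higher and the lower genes differed in the course of their medians over time, with single genes such as Dusp6, Lima1 and Cdk2 near level. The median level of the 36 higher genes was 12, 28 and 47.2 CPM in vehicle and 15.3, 32.6 and 60.4 CPM in VB6 on days 3, 5 and 7, and 8.41 CPM in standard culture. The median level of the 17 lower genes was 83.5, 67.5 and 27.7 CPM in vehicle and 73.3, 52.7 and 21.8 CPM in VB6, and 36.8 CPM in standard culture. Over all genes tested the vehicle median was 11.4, 11.3 and 13.1 CPM. These medians rest on the libraries that chose the genes and carry no test. Median GC content was 49.3% for the higher and 48.2% for the lower genes, against 49.4% over all genes, and median transcript length 3810 and 3065 nt, against 3133 nt.

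Because 2 groups had short fragments, the differences were also computed with a correction for GC content and transcript length in each library, which could be made for 51 of the 53 genes and for 17006 genes in all. Of these 51, the corrected daily differences had the same sign as before on all 3 days for 24 of 35 higher and 12 of 16 lower genes. The 15 others turned sign on some day, 11 of them on day 5, where vehicle had the shortest fragments. They include Praf2, App and Zfp459 of the 14 genes that passed, with corrected differences of -0.25 on day 5 for Praf2, -0.12 on day 7 for App and 0.18 on day 5 for Zfp459. Among the other 12 are Gak, Lbr, Rbbp4, Scp2, Sel1l3, Sidt2, Slu7, Tns4, Txndc12 and Zcchc10, most of them with differences under 0.2. Without overlap on all 3 days after correction were 8 of the higher and 9 of the lower genes, and in the deposited TPM values 4 and 4. Only Afp and Bcl11a had no overlap in CPM, in corrected CPM, in deposited TPM and in deposited FPKM. The corrected day-blocked fit called 158 genes higher (0.929%) and 174 lower (1.02%), and 17 of the higher and 10 of the lower genes described here were among them. This fit reads the libraries that chose the 53 genes, so neither that share nor the values that follow are a further test of them. Afp was 0.74 after correction (adjusted p = 0.00394), Enpep 0.6 (adjusted p = 0.00595), Dusp6 -0.29 (adjusted p = 0.00297) and Mcl1 -0.28 (adjusted p = 0.00285). Whether fragment length accounts for the smaller differences was not tested.

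**Figure D3:**
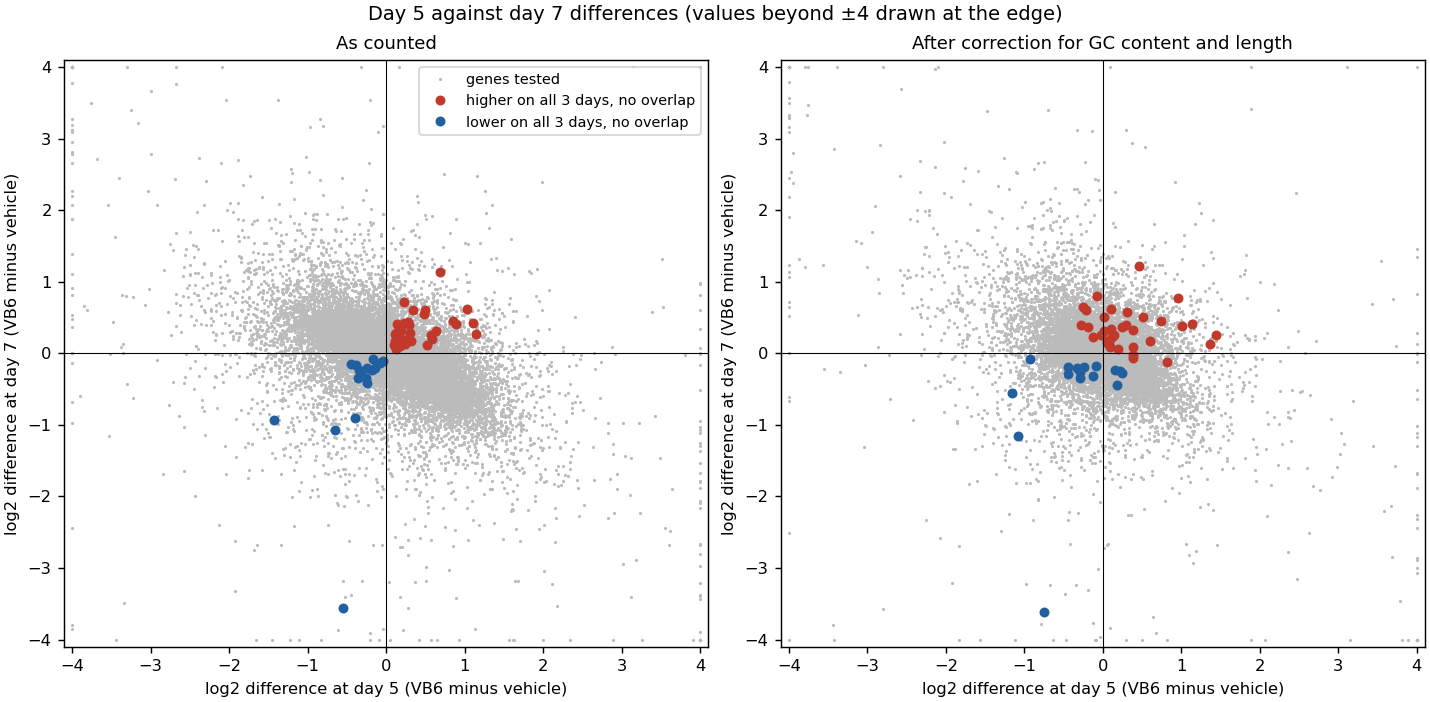
Log2 difference of VB6 minus vehicle at day 5 (x axis) against day 7 (y axis) for every gene tested (grey), with the 36 higher genes in red and the 17 lower genes in blue, as counted on the left and after correction for GC content and length on the right. The grey cloud slopes from upper left to lower right in both panels, and the coloured genes stay in their quadrants on the left while 15 of them leave their sign on some day after correction.

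The day 5 and day 7 differences of genes in general ran against each other. Across 14368 genes, which are not independent replicates, Pearson's r was -0.69 as counted and -0.62 after correction (Spearman -0.68 and -0.43). Day 3 was nearly unrelated to either, with r of -0.13 to day 5 and 0.08 to day 7. The daily contrasts share no library, and the groups with short fragments are on opposite sides of the day 5 and day 7 contrasts.

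Read by lists of known genes, visceral endoderm was the list with the most of the 53. Of 19 tested genes of visceral endoderm and hepatic secretion, Afp, Fgb and Fgg were without overlap on all 3 days. Afp and Fgb passed the day-blocked fit, none was lower by either measure, and 10 were called higher after correction. Over all genes, 0.197% were higher without overlap, 0.0764% were called higher and 0.929% were called higher after correction. Fgb and Fgg overlapped after correction and in deposited TPM, where Afp did not. Fgb overlapped also in deposited FPKM and with DESeq2 size factors. The list's median difference was 0.53 over the days, against 0.01 over all genes, and by day 0.26, 1.11 and 0.03. The single genes went separate ways by day. Mttp, which loads lipid onto apolipoprotein B, was at 0.16, 0.3 and 0.39 (0.29 over the days, SE 0.06, adjusted p = 0.0807), and Trf, transferrin, was at 0.04, 1.24 and 0.32. Apoa1, the main protein of high-density lipoprotein, and Ttr, transthyretin, had positive differences on days 3 and 5 (Apoa1 1.32 and 1.47, Ttr 0.56 and 1.26) and negative ones on day 7 (-0.4 and -0.21). Summed over the list, the level ran from 1652 to 1842 CPM in vehicle and 1768 to 1868 CPM in VB6 on day 3, where the arms overlapped. It ran from 3901 to 4551 and 5159 to 5709 CPM on day 5, and from 7592 to 8221 and 8267 to 10310 CPM on day 7, without overlap.

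**Figure D4:**
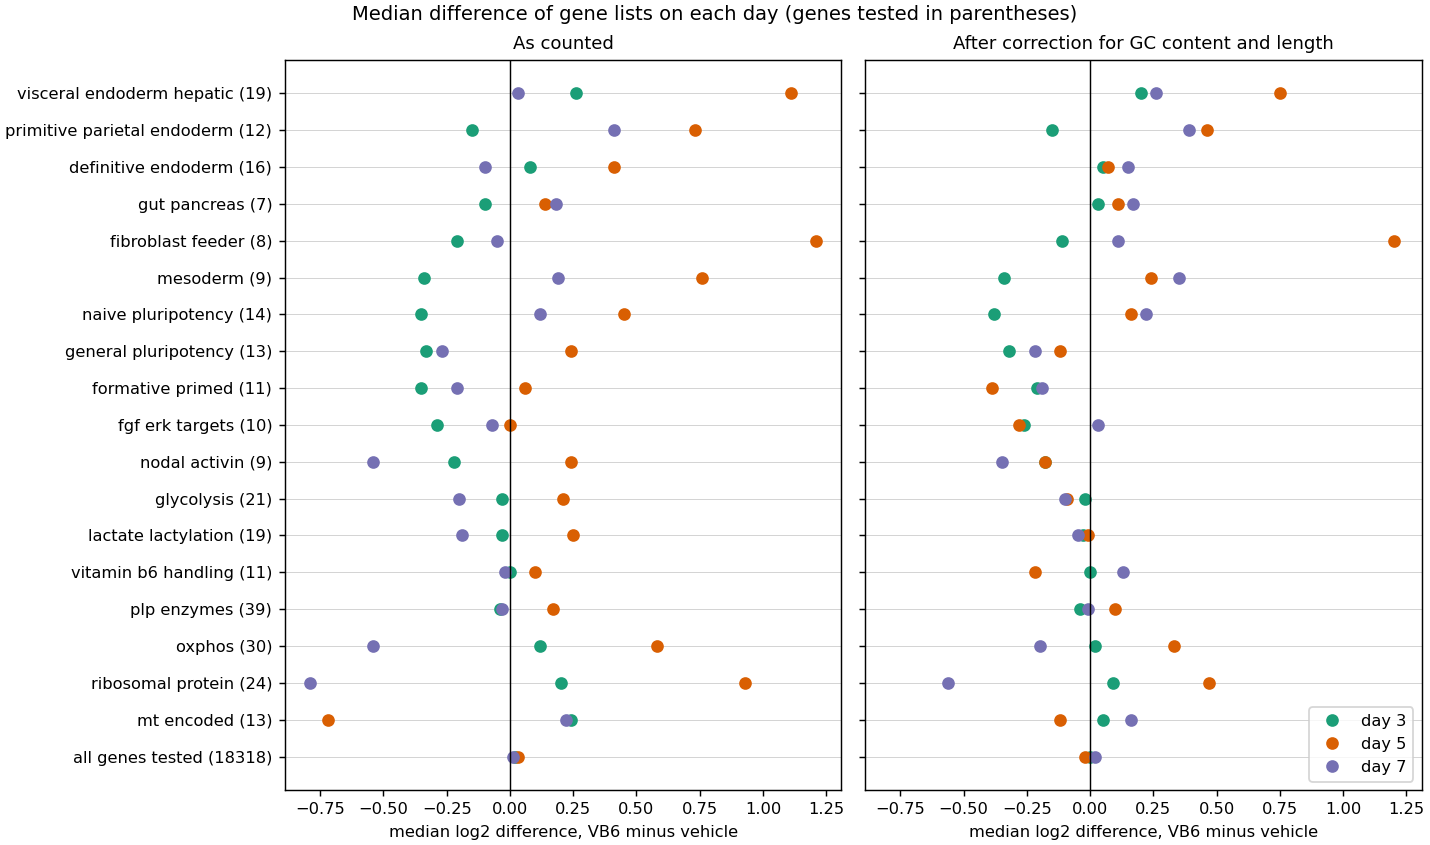
Median log2 difference of VB6 minus vehicle (x axis) of each gene list on day 3 (green), day 5 (orange) and day 7 (purple), as counted on the left and after correction for GC content and length on the right, with the number of genes tested in parentheses. Visceral endoderm has its 3 medians at or above 0 in both panels, whereas ribosomal protein genes stand at 0.93 on day 5 and -0.79 on day 7 as counted.

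Of 12 primitive and parietal endoderm genes, Plat alone was without overlap, against 0.197% of all genes. After correction the arms of Plat overlapped on some day. None passed the fit, and 5 were called higher after correction, against 0.929% of all genes. The laminin chains Lamb1 and Lamc1 were at -0.05 and -0.04 on day 3, 0.64 and 0.41 on day 5 and 0.4 and 0.48 on day 7. Of 16 definitive endoderm genes none was without overlap or called, and 2 were called higher after correction. Its regulators did not keep a sign. Sox17 was at -0.4, 1.6 and -0.35 on the 3 days and Foxa2 at -0.21, 1.04 and -0.17. Gata4, also a regulator of extraembryonic endoderm, kept its sign at 0.09, 0.62 and 0.18, but its day 3 arms overlapped and it did not pass (0.3, SE 0.07, adjusted p = 0.13).

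Of the lists of signalling and pluripotency, that of FGF and ERK targets alone held a lower gene without overlap. Of 10 FGF and ERK targets, Dusp6 alone was without overlap or called, and 3 were called lower after correction. Over all genes, 0.0928% were lower without overlap, 0.0491% were called lower and 1.02% were called lower after correction. Etv1, an ETS factor, was at -0.54, -1.28 and 0.41 by day, and Spry2, a feedback inhibitor, at -0.33, 0.23 and -0.54, so neither shared the sign of Dusp6 on all days. Of 13 general pluripotency genes none was without overlap, and Cripto, the Nodal coreceptor, was called lower (-0.53, SE 0.09, adjusted p = 0.046). Cripto stood at 572 ± 17.4 CPM in vehicle and 443 ± 11.6 CPM in VB6 on day 3 and at 170.1 ± 1.11 and 87.7 ± 4.15 CPM on day 5, but its day 7 libraries overlapped. After correction 3 of the 13 were called lower, among them Cripto and Pou5f1 (-0.33, adjusted p = 0.00339). As counted, Pou5f1, Sox2 and Nanog did not keep a sign. Of 9 Nodal and activin genes, Cripto alone was called as counted, and 4 were called lower after correction, namely Cripto, Lefty2, Smad7 and Nodal. Of 11 formative genes, which mark the epiblast as it leaves the naive state, none was called, 4 (Fgf5, Dnmt3b, Otx2 and Lef1) had a negative difference on all 3 days with overlap, and 5 were called lower after correction. The 14 naive pluripotency genes had a median of 0.04 over the days and none was called.

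In the lists of vitamin B6 handling, glycolysis and lactylation, no gene was without overlap or called as counted. Over all genes, 0.0764% were called higher and 0.0491% lower as counted, and 0.929% and 1.02% after correction. None of the 11 genes of vitamin B6 uptake and salvage was without overlap or called, and their median was 0.02. Pdxk, pyridoxal kinase, was at -0.05, 0.22 and -0.1 by day. Of 39 tested enzymes that use pyridoxal phosphate none was called, and 1 was called higher after correction. None of 21 glycolysis genes was without overlap or called, with a median of -0.02 and with medians of -0.03, 0.21 and -0.2 by day, and 1 gene, Hk2, was called lower after correction (-0.12, adjusted p = 0.0496). Ldha, lactate dehydrogenase A, was at -0.09, 0.07 and -0.19 by day, and Ldhb at 0.19, 0.25 and -0.54. Of 19 genes of lactate transport and histone lactylation none was called, while after correction Sirt2 (0.17) and Slc16a1 (0.15) were called higher and Sirt1 (-0.24) lower.

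The day-blocked fit also called 9 genes that break the rule of no overlap. Besides Cripto, Ctsh, a lysosomal cysteine protease, rose by 0.41 (SE 0.08, adjusted p = 0.0498) and Rhou, a small GTPase, by 0.25 (SE 0.05, adjusted p = 0.0462). Grm6 and Zfp936 were lower, at -1.44 and -0.42. Postn, a matrix protein of fibroblasts, stood at no more than 0.334 CPM in any library before day 7 and at 9.13 to 10.9 CPM in vehicle and 23.6 to 37.3 CPM in VB6 on day 7, so its call came from that day. The pseudogene Gm28439 was at 502 to 982 CPM in vehicle day 5 and at 0 in the other 15 libraries, and the pseudogene Mif-ps4 had the same pattern at 1.34 to 7.41 CPM, apart from 0.0492 CPM in 1 VB6 day 3 library. Reads from such copies cannot be told from those of their parent genes, so both are uncertain. Gm27232 reached 1.27 CPM at most.

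Markers of other cell types moved with the arms on some days. Of 8 tested fibroblast and feeder genes none was without overlap on all 3 days. Postn was called higher as counted, against 0.0764% of all genes. Postn and Acta2 were called higher after correction, against 0.929% of all genes. The list's median was 0.54 over the days, against 0.53 for visceral endoderm, and -0.21, 1.21 and -0.05 by day. Acta2, smooth muscle actin, was at 0.77 (SE 0.83), 1.45 and 0.34 by day (0.87 over the days, SE 0.18, adjusted p = 0.0739). Its day 3 means, 0.15 CPM in vehicle and 0.254 CPM in VB6, lay near the level of 3 counts, so that day gives no clear difference. The list's summed level was 24 to 27.8 CPM in vehicle and 30.2 to 35.2 CPM in VB6 on day 3, 128 to 149 and 283 to 332 CPM on day 5, and 874 to 1068 and 822 to 1144 CPM on day 7, without overlap on days 3 and 5. Of 7 trophoblast, 9 mesoderm, 9 neural ectoderm and 6 endothelial or blood genes tested none was without overlap or called. Trophoblast genes summed to 47.5 to 53.9 CPM in vehicle and 45.2 to 46.9 CPM in VB6 on day 3 and to 85.1 to 111 and 98.4 to 117 CPM on day 7. Neural ectoderm genes summed to more in VB6 on days 3 and 5 (47.4 to 53.3 against 58.1 to 59.5 CPM, and 107 to 120.1 against 139 to 172 CPM) and to less on day 7 (126 to 140.3 against 75.3 to 98.8 CPM). The part of other cell types in the differences of the 53 genes was not tested.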

How the data were processed

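RNA was sequenced from 21 libraries, which were grouped by the labels, and the 18 of the course were compared. The authors deposited expected counts per gene (estimated, 26.9 to 30.5% of the values above 0 not whole), TPM and FPKM for 78317 gene rows. Per the submitters' processing notes the build is mm10. Aligner, counter and annotation: not given in the sources used here. Per the labels' protocols total RNA was extracted with TRIzol, but a small RNA enrichment is also described, so the library preparation is uncertain. The deposited TPM and FPKM served as other scales, and their ratio to the expected counts gave the implied fragment length over 578 genes.

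The test had been planned for whole counts, so expected counts were rounded for it. Genes passing filterByExpr were fitted with edgeR 4.0.16 (R 4.3.3, limma 3.58.1), TMM factors, day as a block and the quasi-likelihood test, with Benjamini-Hochberg adjustment over 18318 genes and a threshold of 0.05. Daily differences and the interaction came from a fit with a mean per group. SE values were derived from the log2 difference and the F statistic. The overlap rule was read on CPM. The correction fitted a spline (5 degrees of freedom) of GC content and length, from GENCODE M21, per library and entered it as an offset. The code was tested on simulated data. Promoters came from RefSeq on GRCm38.p6, where 27 of 36 higher and 15 of 17 lower genes matched by symbol.

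Members, lists and tests were chosen with earlier results of these data known. Named are the 53 genes, up to 3 members of smallest p in 5 lists, 24 genes for endoderm, pluripotency, glycolysis and vitamin B6, and those nearest the edge of the rule. Genes called outside the rule, and Fga, Trf, Lef1, Lefty2, Smad7, Nodal, Sirt1, Sirt2 and Acta2, were added after their values were seen. Alternatives were DESeq2 1.42.0, its size factors, other filters, averaging the days, all 21 libraries, a replicate block, the correction, TPM with limma, FPKM, leaving out each day or library and, chosen after seeing the data, day 3 alone. Some genes are not reported here.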

Additional observations from a re-analysis of the deposited data

Results flagged for a closer look

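The number of genes whose VB6 difference differed between days was 11540 by the edgeR quasi-likelihood F test of the interaction. Values below are Benjamini-Hochberg adjusted p-values of that test. Of the 53 genes, 9 passed it, against 63% of all genes tested. The 53 were chosen for 1 sign on all 3 days, so that count says nothing about them. After the correction for GC content and length 26 of 51 passed, as did 8004 of all 17006 genes. Among the 9 as counted were App (0.000199), Bcl11a (8.78e-05), Plat (0.000295), Mcl1 (0.00315), Fgb (0.0151), Afp (0.0208), Srsf2 (0.034) and Tmprss2 (0.0435). For these the direction is shared by the days and the size is not, Bcl11a being at -0.2 on day 3 and -1.42 on day 5, and Afp at 1.22 on day 3 and 0.41 on day 7.

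The endoderm genes that broke the rule differed by day as well, at 1.5e-09 for Sox17, 3.79e-07 for Foxa2, 0.000228 for Gata4, 0.0052 for Gata6, 4.57e-10 for Apoa1, 3.37e-08 for Ttr, 6.57e-07 for Lamb1 and 3.6e-05 for Lamc1. Pluripotency and formative genes did so at 4.06e-08 for Pou5f1, 4.83e-10 for Sox2, 1.76e-05 for Nanog, 1.25e-09 for Klf2, 9.03e-06 for Cripto, 0.00263 for Dppa2, 0.000615 for Fgf5 and 3.3e-05 for Otx2. The FGF targets Etv1 and Spry2 stood at 1.94e-06 and 0.00134. Genes of glycolysis, lactate and acetylation stood at 0.00385 for Ldha, 6.64e-07 for Ldhb, 8.38e-09 for Pkm, 0.002 for Hk2, 2.28e-06 for Slc2a1, 9.33e-06 for Slc16a1, 4.47e-06 for Ep300 and 0.00145 for Hdac1. Genes of vitamin B6 and serine metabolism stood at 0.0406 for Pdxk, 7.47e-05 for Alpl and 9.25e-07 for Shmt2.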

How the results depend on the processing

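The count of genes called over the 3 days, 14 higher and 9 lower, changed with nearly every choice. It was 126 and 98 under DESeq2, 1482 and 1185 with the daily differences averaged, 158 and 174 after correction for GC content and length, 1671 and 1356 without day 5, 1574 and 916 without day 7 and 1024 and 998 with day 3 alone. It was 0 and 0 under the stricter filter and 1 and 0 by limma on log2(TPM + 1). The higher count was 5 with DESeq2 size factors, and the lower count was 26 with no filter, 16 with all 21 libraries and 3 without day 3. Leaving out each library gave 0 to 8 higher and 1 to 8 lower. With the replicate number as a block the count was 0 and 0, but same-numbered libraries deviated with correlations of only -0.036 to 0.15, and not every library matched best with its own number, so the numbers were not taken as pairs.

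The number of genes without overlap, 36 higher and 17 lower, was 12 and 9 on deposited TPM, 253 and 162 without day 3, 968 and 728 without day 5, 966 and 494 without day 7 and 3021 and 2439 on day 3 alone. The lower number was 65 after correction. Leaving out each library gave 37 to 53 and 18 to 29. The number of genes that differ between days was 10953 to 11543 without 1 library. Single genes turned sign: Sox17 (-0.37) and Sox2 (-0.52) without day 5, Ldhb (0.22) without day 7, and on day 3 alone Sox2 (-0.41), Nanog (0.19) and Ldhb (0.19). Dropping a day drops its requirement. The cause of the other changes was not tested. Depth limits Fgb, Pamr1, Gm36548 and Acta2, with groups at or near 3 counts or under.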
